A study of Mus musculus with 10 samples.

Results

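The 8 CC chemokines described here are the secreted ligands Ccl2, Ccl3, Ccl4, Ccl5, Ccl6, Ccl7, Ccl9 and Ccl12, taken by gene symbol from the 10 deposited count tables, with a gene missing from a table counted as 0. They are 8 of 18292 gene symbols in the tables, and all 8 passed the filter on low counts that left 12157 genes in the tests. The question was how these ligands differ between microglia taken from adult brain, from mixed glial culture, and from brain slices held in culture for 1 day, 1 week or 3 weeks. Single-cell RNA was measured with a droplet kit that reads the 3′ end of each molecule, so the unit is a unique molecular identifier (UMI), a tag that counts 1 captured molecule.

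All animals were C57BL/6. The adult group was isolated directly from adult brain. The in vitro group came from neonatal cortex grown as a mixed glial culture, from which cells in the medium were taken after 3 weeks. The slice groups came from brains of pups in the first days after birth, cut and cultured on membrane inserts in medium with horse serum and added PDGF, and sampled after 1 day, 1 week or 3 weeks. No agent beyond the culture medium was given to these groups. Every group was sorted as live CD11b-high, CD45-intermediate cells and holds 2 libraries, described as biological replicates. Neonatal origin, culture and time in culture change together between the cultured groups and the adult group and cannot be told apart.

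CC chemokines are small secreted proteins that guide leukocytes through G protein-coupled receptors. Ccl2, Ccl7 and Ccl12 act on Ccr2 and draw monocytes, Ccl3 and Ccl5 act on Ccr1 among others, Ccl4 is a close relative of Ccl3, and Ccl6 and Ccl9 are mouse ligands of Ccr1. Microglia make several of them, and their transcription is known to rise within hours of injury or of signals through pattern recognition receptors. All 8 genes lie on chromosome 11 of mm10 in the GENCODE M21 annotation. Ccl2 (82035571 to 82037453, plus strand), Ccl7 (82045712 to 82047525, plus strand) and Ccl12 (82101845 to 82103400, plus strand) form 1 stretch. Ccl5 (83525778 to 83530518), Ccl9 (83572919 to 83578636), Ccl6 (83587882 to 83593087) and Ccl3 (83647844 to 83649355), all on the minus strand, and Ccl4 (83662584 to 83664683, plus strand) form the other.

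Upstream sequence is shown for 3 members because their levels moved in different ways across the groups: Ccl12 was the member called lower in vitro, Ccl3 was high in every slice group, and Ccl9 had its highest mean in vitro. RefSeq windows (GRCm38.p6) matched 4 of the 8 members, Ccl3, Ccl6, Ccl9 and Ccl12, and the 250 bases before the annotated start are given 5′ to 3′ on the gene's strand. Capitals mark matches to any of 5 motifs searched on both strands: the NF-kB type (GGG and CC with any 5 bases between), the AP-1 type (TGANTCA), the interferon-response type (GAAA, any 2 bases, GAAA), the TATA box type (TATAAA) and the STAT type (TTC and GAA with any 3 bases between).
Ccl12, chr11:82101595-82101844, plus strand: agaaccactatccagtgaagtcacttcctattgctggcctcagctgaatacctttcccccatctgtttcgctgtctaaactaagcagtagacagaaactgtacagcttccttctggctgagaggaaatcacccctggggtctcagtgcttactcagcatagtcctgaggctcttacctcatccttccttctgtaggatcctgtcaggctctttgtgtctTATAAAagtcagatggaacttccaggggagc
Ccl3, chr11:83649379-83649628, minus strand: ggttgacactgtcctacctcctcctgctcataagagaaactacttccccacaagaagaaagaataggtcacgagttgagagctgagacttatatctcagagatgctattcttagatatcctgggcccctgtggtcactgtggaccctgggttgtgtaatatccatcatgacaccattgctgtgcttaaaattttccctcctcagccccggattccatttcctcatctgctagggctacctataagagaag
Ccl9, chr11:83578637-83578886, minus strand: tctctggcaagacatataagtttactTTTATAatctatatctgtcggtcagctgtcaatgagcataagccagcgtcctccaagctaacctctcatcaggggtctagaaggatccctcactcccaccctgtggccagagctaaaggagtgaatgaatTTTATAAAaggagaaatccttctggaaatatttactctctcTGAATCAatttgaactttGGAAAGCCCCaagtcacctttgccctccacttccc
The Ccl12 window held 1 match, a TATA box type match with its first base at -31 from the start. The Ccl9 window held 5 matches: 3 of TATA box type at -224, -94 and -92, of which the last 2 overlap, 1 of AP-1 type at -53 and 1 of NF-kB type at -35. The windows of Ccl3 and Ccl6 held none of these letters. Among 32851 windows of the same length, 45.8% held the NF-kB type letters, 6.75% the AP-1 type, 2.98% the interferon-response type, 12.4% the TATA box type and 7.02% the STAT type. These matches describe letters in a window and are not binding sites.

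The libraries held 61 to 3799 kept cells and 385373 to 39689540 UMIs. The slice 1 week libraries were the smallest, with 148 and 61 cells. The study counted fewer cells of these libraries as microglia, with a large gap for the library of 148. Its lowest and highest counts for the other samples also lay below the lowest and highest kept here for the other libraries. Cells that it did not count as microglia are therefore among those summed here. Markers of other cells moved with the groups. At least 1 UMI of the neutrophil genes S100a8 or S100a9 was found in 93.2% and 100% of cells in the slice 1 day libraries and in 100% and 36.1% in the slice 1 week libraries, and in at most 2.72% of cells in any other library. The 10 neutrophil markers summed to 7837 to 22920 CPM at 1 day and 968 to 40900 CPM at 1 week, and to at most 8.39 CPM elsewhere. Cells with over 1% of their UMIs in S100a8 and S100a9 together numbered 68 and 114 at 1 day and 24 and 1 at 1 week, with none elsewhere. A further 37 and 51 cells at 1 day had at least 4 UMIs of the monocyte markers Ly6c2, Ccr2, Plac8 and Ear2 together, as did at most 4 cells in any other library. The 10 monocyte markers summed to 5.59 to 7.83 CPM in adult (6 of 10 detected), 38.1 to 89.7 CPM in vitro (6), 704 to 1012 CPM at 1 day (10), 356 to 1492 CPM at 1 week (9) and 150.0 to 233 CPM at 3 weeks (7). Without the cells over the neutrophil or monocyte marker limit, the number of members called in each direction was the same in all 8 comparisons but 1. The exception was slice 3 weeks against slice 1 day, with 5 in place of 4 called lower. Neuron markers (6 of 7 detected) summed to 352 to 545 CPM at 1 week and to at most 42.6 CPM elsewhere, and dendritic cell markers (7 of 8) to 1015 to 1291 CPM in adult and to at most 199 CPM elsewhere. Border macrophage markers were highest in vitro, and erythroid markers ranged from 0 to 1852 CPM in adult and from 0.734 to 3463 CPM at 1 day. The part of these cells in the results was not tested. All 10 microglia markers were detected in every group, with summed levels of 53852 to 55048 CPM in adult and 9239 to 10231 CPM at 1 day. In summed counts, fewer expressing cells and less RNA per cell cannot be told apart. Of 18840 distinct kept barcodes, 218 occurred in more than 1 library.

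Levels below are CPM, UMI counts set to a common library total and scaled by the trimmed mean of M values, from UMIs summed over the kept cells of a library, and fold changes are from edgeR's quasi-likelihood test over all 10 libraries. A gene was called at a Benjamini-Hochberg adjusted p below 0.05 and a fold above 1.5. The p-values rest on 2 libraries a group and on a spread shared across groups.

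The summed UMIs of the 8 genes were lowest in adult, at 1253 and 993 CPM of a library's UMIs without further scaling, and highest at slice 1 day, at 5157 and 6116. They were 1609 and 1950 in vitro, 1522 and 1604 at slice 1 week, and 3801 and 3008 at slice 3 weeks. No groups overlapped, although in vitro (1609) and slice 1 week (1604) nearly met. The make-up also differed. Ccl6 and Ccl9 together held most of the chemokine UMIs in adult, with 26.9% and 36.5% for Ccl6 and 30.9% and 28.9% for Ccl9, and likewise in vitro, with 31.1% and 33.8% for Ccl6 and 41.8% and 44.8% for Ccl9. At slice 3 weeks Ccl9 held 7.73% and 4.19%, while Ccl3 held 22.6% and 23.4% and Ccl4 24.8% and 20.1%. Because the kit reads 3′ ends, these shares are of molecules captured and were not divided by length.

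**Figure D1:**
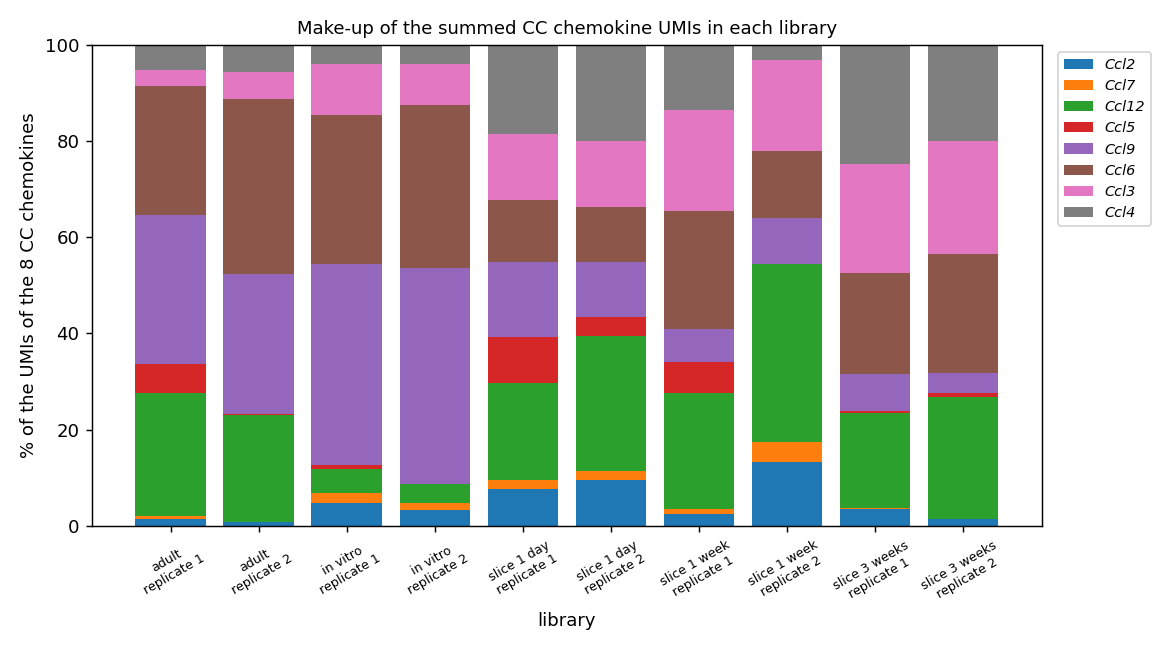
Each bar is 1 library and divides the UMIs of the 8 CC chemokines (vertical axis, percent) by gene. Ccl6 and Ccl9 fill most of the adult and in vitro bars, and Ccl3, Ccl4 and Ccl12 fill most of the slice 1 day and slice 3 weeks bars.

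Ccl2, which recruits Ccr2-bearing monocytes, measured 16.7 and 6.18 CPM in adult, 83.0 and 71.4 in vitro, 383 and 567 at slice 1 day, 39.5 and 210 at slice 1 week, and 135 and 44.9 at slice 3 weeks. Slice 1 day lay above every other group and adult below every other group, while slice 1 week, slice 3 weeks and in vitro overlapped. Ccl7, a close relative with the same receptor, was nearly absent in adult at 6.37 and 0.773 CPM and in slice 3 weeks at 8.41 and 1.86 CPM. It reached 92.5 and 123 CPM at slice 1 day, 17.8 and 66.5 at slice 1 week and 37.9 and 30.6 in vitro. Its adult and slice 3 weeks values overlapped, as did those of slice 1 week and in vitro. Ccl12, the third Ccr2 ligand, was well measured in adult at 290 and 194 CPM. It was 86.2 and 85.6 CPM in vitro, 997 and 1677 at slice 1 day, 391 and 583 at slice 1 week and 762 and 793 at slice 3 weeks. For Ccl12 no neighbouring groups overlapped, and in vitro was the lowest.

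Ccl3, a ligand of Ccr1, measured 38.2 and 49.2 CPM in adult, 183 and 185 in vitro, 681 and 831 at slice 1 day, 341 and 297 at slice 1 week, and 870 and 732 at slice 3 weeks. Its 1 day and 3 week slice values overlapped and all other neighbours were apart. Ccl4, its close relative, measured 59.8 and 49.1 CPM in adult, 72.3 and 89.4 in vitro, 916 and 1200 at slice 1 day, 222 and 51.2 at slice 1 week, and 955 and 627 at slice 3 weeks. The 2 slice 1 week libraries of Ccl4 were far apart and spanned the in vitro values. Ccl5, also a ligand of Ccr1, was the most uneven member, with 69.0 and 2.19 CPM in adult, 13.3 and 2.53 in vitro, 465 and 244 at slice 1 day, 104 and 0 at slice 1 week, and 12 and 24.5 at slice 3 weeks. Only its slice 1 day libraries lay above all others. The 0 in slice 1 week replicate 2 was 0 of 385373 UMIs, which allows up to 7.78 CPM (3 counts, counting error only).

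Ccl6, a Ccr1 ligand that microglia and macrophages express at rest, varied least, with 305 and 317 CPM in adult, 546 and 735 in vitro, 636 and 687 at slice 1 day, 397 and 220 at slice 1 week, and 805 and 773 at slice 3 weeks. Adult and slice 1 week overlapped, as did in vitro and slice 1 day. Ccl9, its neighbour on the chromosome and also a Ccr1 ligand, measured 351 and 252 CPM in adult, 733 and 974 in vitro, 779 and 683 at slice 1 day, 113 and 154 at slice 1 week, and 297 and 131 at slice 3 weeks. In vitro and slice 1 day overlapped at the top, and slice 3 weeks overlapped both adult and slice 1 week.

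**Figure D2:**
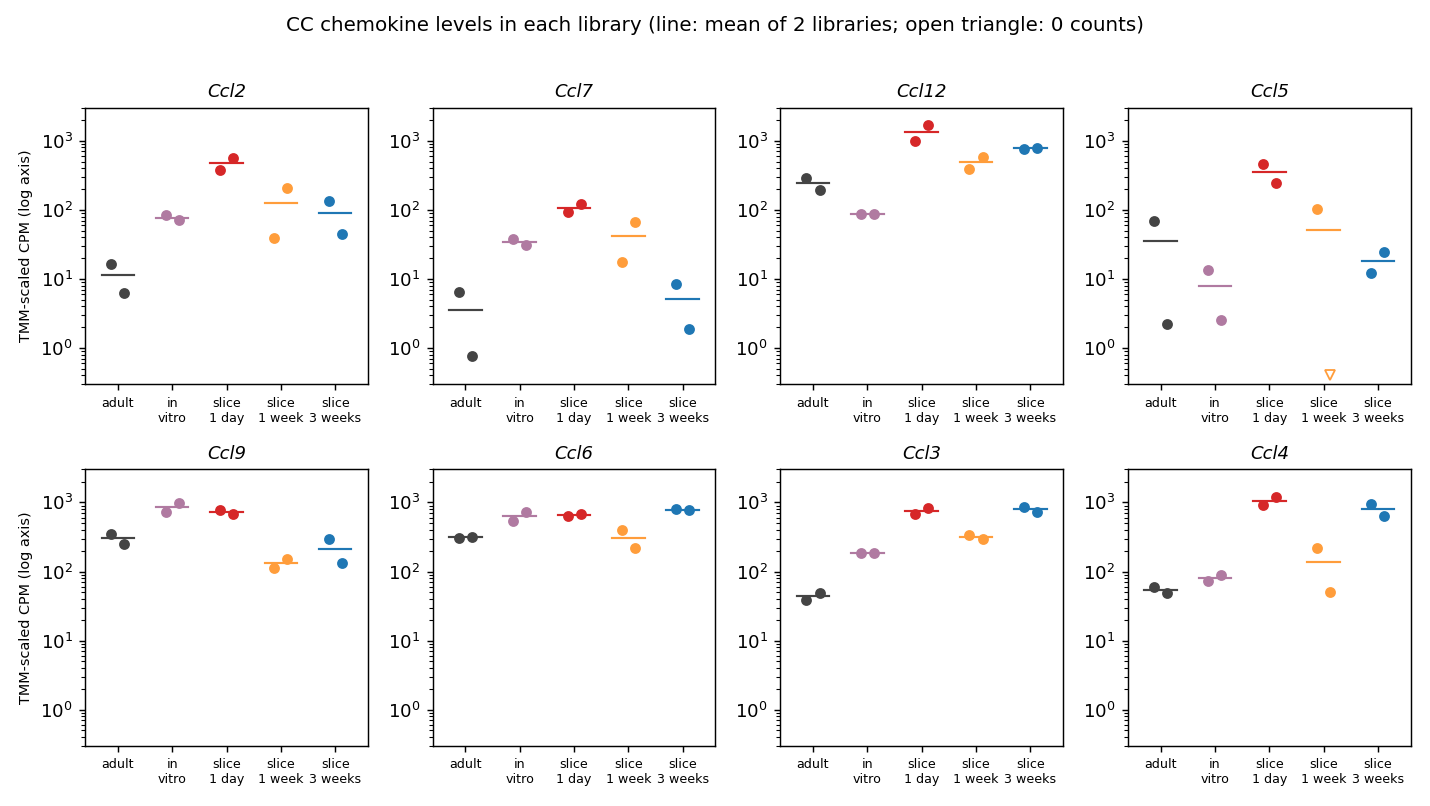
Each panel is 1 gene, each point 1 library (TMM-scaled CPM, log axis) and each line the mean of the 2 libraries of a group. Slice 1 day lies above adult for all 8 genes, and the open triangle marks the library with no Ccl5 UMI.

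At slice 1 day all 8 members were higher than in adult, by 2.12-fold for Ccl6 to 40.5-fold for Ccl2. Across all genes 24.9% were called higher and 25.3% lower. Ccl2 rose by log2 5.34 ± 0.77 (SE, edgeR adjusted p = 0.000234) and Ccl7 by log2 4.76 ± 0.73 (adjusted p = 0.00036). Ccl4 rose by log2 4.28 ± 0.49 (adjusted p = 5.46e-05) and Ccl3 by log2 4.12 ± 0.20 (adjusted p = 4.55e-07). Ccl5 rose by log2 3.28 ± 1.21 (adjusted p = 0.0396), a call that was lost with DESeq2 (adjusted p = 0.14). Ccl5 also lost the call without adult replicate 2 (log2 2.36, adjusted p = 0.108), without slice 1 day replicate 1 (log2 2.74, adjusted p = 0.113) and without slice 1 day replicate 2 (log2 3.74, adjusted p = 0.0532). Ccl12 rose by log2 2.46 ± 0.29, Ccl9 by log2 1.28 ± 0.34 and Ccl6 by log2 1.09 ± 0.24 (adjusted p = 6.05e-05, 0.00838 and 0.00305). The Ccl9 call was lost without adult replicate 2 (log2 1.06, adjusted p = 0.0672).

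The rise at 1 day was of like size without the 105 and 165 cells over the neutrophil or monocyte marker limits, which were chosen after seeing the data. The cells left in were not free of these markers. Cells at or under the S100a8 and S100a9 limit had a median share of 0.050% and 0.35% of UMIs in these genes. All 8 members were again called higher, with log2 values of 5.54 for Ccl2, 4.94 for Ccl7, 4.46 for Ccl4, 4.29 for Ccl3, 3.50 for Ccl5, 2.67 for Ccl12, 1.44 for Ccl9 and 1.06 for Ccl6. The cells left out held 16.8% and 14.1% of the Ccl6 UMIs of the slice 1 day libraries, and at most 3.52% of the UMIs of any other member. Of the cells over the S100a8 and S100a9 limit in slice 1 day replicate 1, which are the cells nearest to neutrophils, 5.88% had a UMI of Ccl2 at a median depth of 2224 UMIs, against 41.6% of the remaining cells at a median of 7221. For Ccl12 the shares were 20.6% and 68.3%, and for Ccl6 63.2% and 69.7%. In slice 1 day replicate 2 the Ccl2 shares were 46.5% and 72.9%, at median depths of 4925 and 9190 UMIs, and the part of free RNA in these shares was not tested.

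At slice 1 week 5 members were called higher than in adult and 1 lower, against 15.0% and 13.6% of all genes. Ccl3 rose by log2 2.88 ± 0.19 (edgeR adjusted p = 6.44e-06), a call that held with every alternative tried. Ccl2 (log2 3.25 ± 0.78), Ccl7 (3.12 ± 0.98), Ccl4 (1.42 ± 0.46) and Ccl12 (1.00 ± 0.28) were also called higher, with adjusted p of 0.0103, 0.0355, 0.0402 and 0.0219. Ccl9 was called lower by log2 -1.20 ± 0.36 (adjusted p = 0.0284). These 5 calls depended on single libraries. Without slice 1 week replicate 1, Ccl4 measured log2 -0.064, Ccl7 4.09 (adjusted p = 0.072) and Ccl9 -0.94 (adjusted p = 0.288). Without slice 1 week replicate 2, Ccl2 measured log2 1.71 (adjusted p = 0.163), Ccl7 2.12 (adjusted p = 0.28), Ccl12 0.65 (adjusted p = 0.172) and Ccl9 -1.46 (adjusted p = 0.0596). Without adult replicate 2, Ccl2, Ccl4, Ccl7 and Ccl12 were not called (adjusted p = 0.0567, 0.162, 0.0752 and 0.141), and without adult replicate 1, Ccl4 and Ccl9 were not (adjusted p = 0.0886 and 0.154). Ccl4 was not called by DESeq2 either (adjusted p = 0.0803). Ccl5 (log2 0.80 ± 1.3, adjusted p = 0.693) and Ccl6 (0.01 ± 0.24, adjusted p = 0.987) did not pass. Ccl5 was called higher without adult replicate 1 (log2 4.89, adjusted p = 0.0478) and among the libraries of the second of 2 study labels alone (log2 4.86, adjusted p = 0.0453), both with 1 adult library. In slice 1 week replicate 1 the 24 cells over the S100a8 and S100a9 limit held 45.8% of the Ccl6 UMIs, and without marker cells Ccl6 measured log2 -0.40 (adjusted p = 0.0982).

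At slice 3 weeks 5 members were called higher than in adult and none lower, against 17.9% and 17.5% of all genes. Ccl3 stood at log2 4.20 ± 0.20 (edgeR adjusted p = 5.34e-07) and Ccl4 at log2 3.86 ± 0.48 (adjusted p = 0.000173), that is 18.4-fold and 14.5-fold above adult. Ccl2 was higher by log2 2.92 ± 0.70, Ccl12 by 1.68 ± 0.28 and Ccl6 by 1.34 ± 0.24 (adjusted p = 0.00768, 0.000977 and 0.00149). The Ccl2 call was lost without adult replicate 2 (log2 2.41, adjusted p = 0.0608). Ccl7 (log2 0.15 ± 0.80, adjusted p = 0.913), Ccl9 (-0.49 ± 0.33, adjusted p = 0.263) and Ccl5 (-0.96 ± 1.15, adjusted p = 0.541) did not pass. The samples carry 2 study labels, each with 1 adult and 1 slice 3 weeks library, and the log2 ratios within each label were 4.49 and 3.88 for Ccl3, 3.98 and 3.66 for Ccl4, 2.97 and 2.76 for Ccl2, 1.39 and 2.03 for Ccl12 and 1.40 and 1.28 for Ccl6. For Ccl5 they were -2.47 and 3.22, with opposite signs. For Ccl9 they were -0.24 and -0.94, and among the libraries of the second label alone Ccl9 was called lower (log2 -0.94, adjusted p = 0.0207). That fit sets 1 library against 1 and takes its spread from the other groups, and Ccl9 measured log2 0.038 without slice 3 weeks replicate 2 and -1.16 (adjusted p = 0.00815) without slice 3 weeks replicate 1.

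In vitro 5 members were called higher than in adult and 1 lower, against 22.4% and 28.5% of all genes. Ccl7 rose by log2 3.10 ± 0.71, Ccl2 by 2.71 ± 0.69, Ccl3 by 2.07 ± 0.18, Ccl9 by 1.5 ± 0.34 and Ccl6 by 1.04 ± 0.24, with edgeR adjusted p of 0.00352, 0.00682, 6.69e-06, 0.00326 and 0.00355. The Ccl2 call was lost without adult replicate 2 (log2 2.20, adjusted p = 0.0553). Ccl12 fell by 1.5 ± 0.28 on the log2 scale (adjusted p = 0.00103). Counted as UMIs per cell, a scaling that shifted the middle of all genes by log2 2.15 here, Ccl12 measured log2 0.61 (adjusted p = 0.125), so its fall is relative to the other genes. Ccl4 (log2 0.57 ± 0.43, adjusted p = 0.287) and Ccl5 (-2.21 ± 1.18, adjusted p = 0.137) did not pass. Ccl4 was called higher without slice 1 week replicate 1 (log2 0.69, adjusted p = 0.0359), without slice 1 week replicate 2 (log2 0.69, adjusted p = 0.0369) and without both (log2 0.68, adjusted p = 0.0379). Ccl5 was called lower without adult replicate 2 (log2 -3.13, adjusted p = 0.0246) and measured log2 1.94 without adult replicate 1. The border macrophage markers, which mark macrophages of the brain's surfaces and vessels, summed to 2747 to 2895 CPM in vitro and 137 to 175 CPM in adult, and their part in these differences was not tested. The comparisons against adult all use the same 2 adult libraries.

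**Figure D3:**
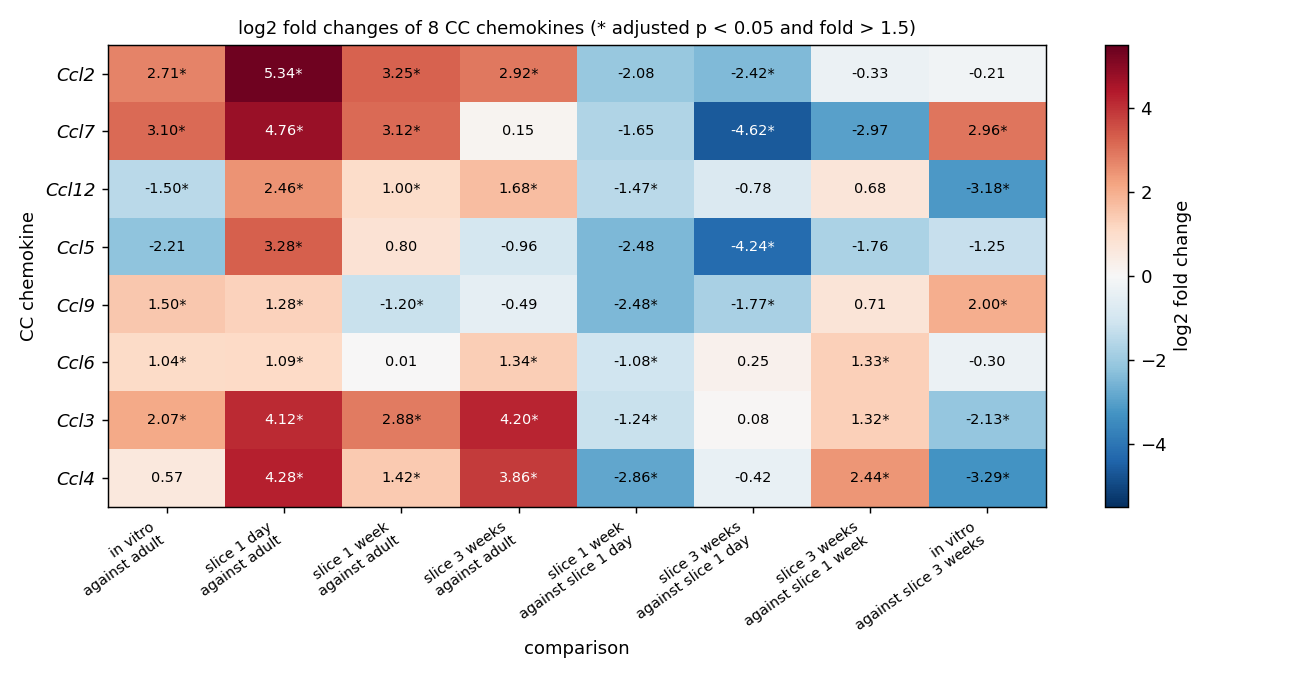
Rows are the 8 genes in chromosome order, columns the 8 comparisons, and each cell gives the log2 fold change (colour and number), with an asterisk where the gene was called. The slice 1 day column holds 8 calls above adult, and Ccl3 and Ccl4 stand at 2.88 and 1.42 at slice 1 week and at 4.20 and 3.86 at slice 3 weeks, where Ccl7 stands at 0.15.

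From slice 1 day to slice 3 weeks the family divided. Ccl7 fell by 4.62 ± 0.73, Ccl5 by 4.24 ± 1.27, Ccl2 by 2.42 ± 0.66 and Ccl9 by 1.77 ± 0.34 on the log2 scale (edgeR adjusted p = 0.00154, 0.0291, 0.0202 and 0.00389), so that 4 members were called lower and none higher, against 12.8% and 13.9% of all genes. Ccl3 (log2 0.08 ± 0.17, adjusted p = 0.754), Ccl4 (-0.42 ± 0.43, adjusted p = 0.485) and Ccl6 (0.25 ± 0.24, adjusted p = 0.438) did not pass. Ccl12 measured log2 -0.78 ± 0.27 at an adjusted p of 0.0523, and it was called without the marker cells (log2 -0.95, adjusted p = 0.0189), with the study label in the model (log2 -0.90, adjusted p = 0.0407) and by DESeq2 (adjusted p = 0.0194). The Ccl5 call was lost with DESeq2 (adjusted p = 0.0854) and without any 1 of the 4 libraries compared, at log2 values of -3.70, -4.62, -3.85 and -4.87. The Ccl2 call was lost without slice 1 day replicate 2 (log2 -2.10, adjusted p = 0.0997) or slice 3 weeks replicate 2 (log2 -1.81, adjusted p = 0.117).

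From slice 1 day to slice 1 week 5 members were called lower and none higher, against 5.25% and 4.91% of all genes. Ccl4 fell by 2.86 ± 0.47, Ccl9 by 2.48 ± 0.37, Ccl12 by 1.47 ± 0.28, Ccl3 by 1.24 ± 0.18 and Ccl6 by 1.08 ± 0.24 on the log2 scale, with edgeR adjusted p of 0.00589, 0.00428, 0.0111, 0.00426 and 0.0211. The values of Ccl5 (-2.48 ± 1.3), Ccl2 (-2.08 ± 0.72) and Ccl7 (-1.65 ± 0.80) did not pass, at adjusted p of 0.263, 0.0929 and 0.229. With the study label in the model Ccl2 (log2 -2.10, adjusted p = 0.0356) and Ccl7 (log2 -1.68, adjusted p = 0.0332) were called lower, as they were among the libraries of the second label alone (adjusted p = 0.0421 and 0.0303). Ccl2 was also called without slice 1 week replicate 2 (log2 -3.67, adjusted p = 0.0384). The Ccl9 and Ccl12 calls were lost without slice 1 week replicate 1 (adjusted p = 0.0697 and 0.116). Ccl12 also lost its call without slice 1 day replicate 2 (log2 -1.05, adjusted p = 0.0844). Ccl6 lost its call without slice 1 day replicate 1, slice 1 day replicate 2 or slice 1 week replicate 2 (adjusted p = 0.0559, 0.109 and 0.0583).

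From slice 1 week to slice 3 weeks 3 members were called higher and none lower, against 2.23% and 3.49% of all genes. Ccl4 rose by log2 2.44 ± 0.47, Ccl6 by 1.33 ± 0.24 and Ccl3 by 1.32 ± 0.18 (edgeR adjusted p = 0.0165, 0.0133 and 0.00369). The Ccl3 call was lost without slice 1 week replicate 1 (log2 1.45, adjusted p = 0.0546). Ccl7 measured log2 -2.97 ± 0.98 (adjusted p = 0.106) and was called lower with the study label in the model (log2 -4.31, adjusted p = 0.00405). Ccl12 (0.68 ± 0.28), Ccl9 (0.71 ± 0.36), Ccl2 (-0.33 ± 0.72) and Ccl5 (-1.76 ± 1.33) did not pass. Ccl9 was called higher without slice 3 weeks replicate 2 (log2 1.24, adjusted p = 0.0394), and Ccl7 was called lower without slice 3 weeks replicate 1 (log2 -4.10, adjusted p = 0.0276).

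Both culture systems at 3 weeks could be set against each other directly. In vitro against slice 3 weeks, 2 members were called higher and 3 lower, against 13.3% and 19.9% of all genes. Ccl7 was higher in vitro by log2 2.96 ± 0.70 and Ccl9 by 2.00 ± 0.34 (edgeR adjusted p = 0.00804 and 0.00135). Ccl4 was lower in vitro by log2 -3.29 ± 0.47, Ccl12 by -3.18 ± 0.30 and Ccl3 by -2.13 ± 0.18 (adjusted p = 0.000433, 2.75e-05 and 1.62e-05). Ccl2 (-0.21 ± 0.63), Ccl6 (-0.30 ± 0.23) and Ccl5 (-1.25 ± 1.17) did not pass. These 5 calls held under every alternative that was run.

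The share of cells with a UMI of each ligand was compared after thinning cells to 1000 UMIs, since cells differed in depth. Cells with fewer UMIs were left out, 66 and 205 in adult and 2 in slice 1 week replicate 2, with none in any other library. Thinned shares of cells with a Ccl4 UMI were 1.82% and 1.72% in adult, 4.43% and 5.44% in vitro, 26.8% and 35.5% at slice 1 day, 9.46% and 6.78% at slice 1 week, and 24.1% and 17.6% at slice 3 weeks. Unthinned, those shares were 5.32% and 3.03% in adult and 54.6% and 86.5% at slice 1 day. Ccl12 was in 14.3% and 14.0% of thinned adult cells, 5.75% and 5.18% of in vitro cells, and 27.2% and 48.8% of slice 1 day cells (35.2%, 23.2%, 30.5%, 32.4%, 59.7% and 90.7% unthinned). It was in 19.6% and 11.9% of thinned slice 1 week cells and 30.8% and 25.3% of thinned slice 3 weeks cells (53.4%, 42.6%, 63.1% and 51.1% unthinned). Ccl6 was the most evenly spread, from 16.9% to 38.6% of thinned cells over the 10 libraries. Ccl5 was in 8.88% and 6.80% of thinned slice 1 day cells (26.1% and 34.8% unthinned) and in at most 2.60% of thinned cells elsewhere. In slice 1 week replicate 2 a Ccl5 UMI was found in 0 of 61 unthinned cells, which allows a share of cells with a UMI of up to 4.92% (3 of 61, counting error only). The 5% of cells richest in Ccl5 held 90.8% and 85.1% of its UMIs at slice 1 day, and the richest single cell held 499. For Ccl6 the richest 5% of cells held 26.2% and 29.6% of the UMIs in adult. Ccl2 was in 14.9% and 24.1% of thinned slice 1 day cells and 0.70% and 0.42% of thinned adult cells (35.3%, 68.4%, 2.32% and 0.737% unthinned). The richest 5% of unthinned slice 1 day cells held 60.4% and 47.1% of its UMIs. In slice 1 week replicate 2 a single cell held 67 of 82 Ccl2 UMIs. The richest cell for Ccl12 there held 129 of 228 UMIs, and that for Ccl7 17 of 26. In slice 1 week replicate 1 the richest cell for Ccl4 held 133 of 225 UMIs, and that for Ccl5 85 of 105. Cells with UMIs of 3 or more members made up 2.89% and 2.02% of thinned adult cells and 25.7% and 39.8% of thinned slice 1 day cells. They made up 5.59% and 7.46% in vitro, 5.41% and 5.08% at slice 1 week and 19.1% and 11.6% at slice 3 weeks. Free RNA can place UMIs in cells that do not express a gene. In the thinned slice 1 day cells over the S100a8 and S100a9 limit, Ccl4 UMIs were in 14.7% and 18.4%, against 29.8% and 38.8% of the remaining cells. Remaining cells lay at or under that limit and had fewer than 4 monocyte marker UMIs, so they could still carry these markers. The shares were 11.8% and 21.9% against 32.0% and 54.9% for Ccl12, 4.41% and 10.5% against 17.4% and 27.0% for Ccl2, 5.88% and 3.51% against 10.2% and 7.42% for Ccl5, and 10.3% and 13.2% against 30.3% and 45.3% for cells with 3 or more members. The Ccl6 shares were higher in the cells over the limit, at 51.5% and 41.2% against 35.1% and 35.8%. The part of free RNA in the slice 1 day shares was not tested.

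**Figure D4:**
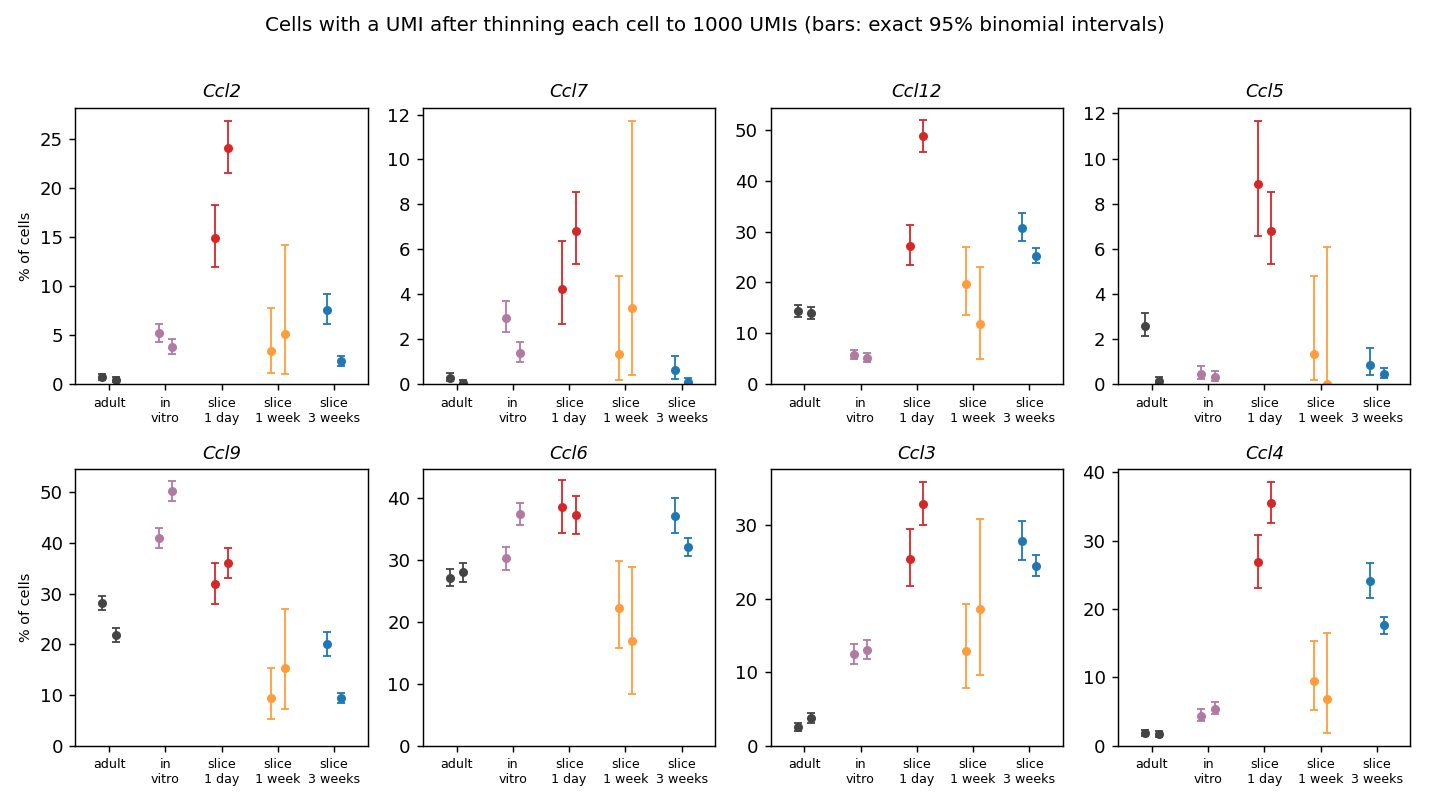
Each panel is 1 gene and each point the percent of a library's cells with a UMI after thinning to 1000 UMIs a cell, with exact binomial 95% intervals that cover counting error only. Slice 1 day and slice 3 weeks lie highest for Ccl3, Ccl4 and Ccl12, and Ccl9 is highest in vitro.

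The 4 pairs of members with the highest correlation from cell to cell each lay within 1 of the 2 stretches of chromosome 11. Over the 8 libraries with at least 500 cells, the mean Pearson r within a library was 0.47 for Ccl3 with Ccl4 (range 0.27 to 0.64), 0.36 for Ccl2 with Ccl7 (0.12 to 0.52), 0.35 for Ccl2 with Ccl12 (0.06 to 0.56) and 0.21 for Ccl6 with Ccl9 (0.07 to 0.33). The other 24 pairs had means of -0.03 to 0.19. These are descriptions over the cells of a library, which were scaled to a common total but not thinned and so differed in depth. The part of depth in these values was not tested. The longest run of bases shared between transcripts of any pair of members was 25, for Ccl6 and Ccl9, and it was 23 for Ccl2 and Ccl7. Ccl9 transcripts shared at least 1 stretch of 50 bases with transcripts of 463 other genes, and the other 7 members with none, so reads of this length from those stretches of Ccl9 could map to more than 1 gene.

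**Figure D5:**
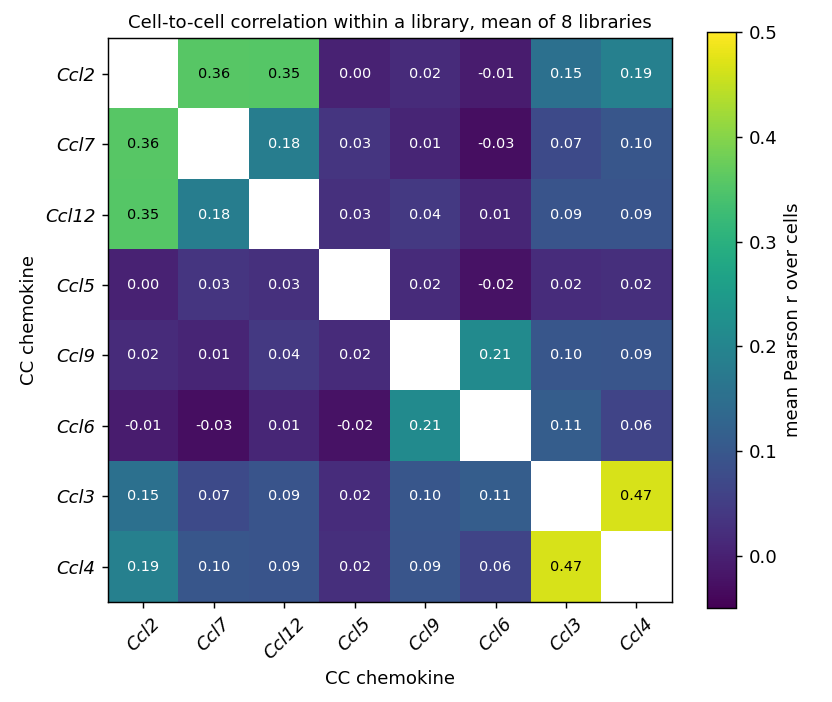
Each square is the mean over 8 libraries of the Pearson correlation across cells between a pair of CC chemokines, in chromosome order. The highest values are 0.47 for Ccl3 with Ccl4, 0.36 for Ccl2 with Ccl7 and 0.35 for Ccl2 with Ccl12.

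Outside the family, the genes with the most similar cell-to-cell pattern were Plek, Eif4a1 and Ctsz for Ccl3 (mean r 0.16, 0.16 and 0.15) and C1qa, Ly86 and C1qc for Ccl12 (0.19, 0.19 and 0.18). For Ccl5 they were the MHC class I genes H2-D1 and H2-K1 and the gene Lgals3bp (0.13, 0.12 and 0.11). After Ccl3, Ccl4 was nearest to Id2 and Eif4a1 (0.20 and 0.17). After Ccl9, Ccl6 was nearest to Tyrobp and Lyz2 (0.16 and 0.12), and after Ccl6, Ccl9 was nearest to Ctsl and Capg (0.20 and 0.14). Ccl2 and Ccl7 were both nearest to Ccl12 among genes found in at least 5% of cells in each library, followed by Ccl3 and Ccnd1 for Ccl2 (0.15 and 0.15) and Ccnd1 and Snx2 for Ccl7 (0.10 and 0.08). Across the 10 libraries, over 5275 genes, the nearest gene by Pearson r of log2 CPM was Eif3l for Ccl2 (0.97), Fam111a for Ccl3 (0.99), Nab2 for Ccl4 (0.98), Gtf2f2 for Ccl5 (0.86), Slc11a2 for Ccl6 (0.93), Bop1 for Ccl7 (0.94), Ahsa1 for Ccl9 (0.95) and Tnip2 for Ccl12 (0.95). The next 2 were Nasp and Lmnb1 for Ccl2, Wdfy1 and Pofut2 for Ccl3, Ssr2 and Gars for Ccl4, and Rgs1 and Fam207a for Ccl5. They were Nsf and Speg for Ccl6, Apobr and Larp7 for Ccl7, Wdr18 and Polr2j for Ccl9, and Slc2a1 and Csf1 for Ccl12. The 10 points of each value are the same libraries in 5 groups.

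Of 13 other CC ligands listed, 4 passed the filter on low counts. The summed level of all 13 stayed between 16.6 and 49.0 CPM in every library. Ccl8 was 12.9 and 20.6 CPM in vitro and at most 5.12 CPM elsewhere. Ccl24, a Ccr3 ligand, was 32.5 and 36.8 CPM at slice 1 day and at most 12 CPM elsewhere. Ccl25, a Ccr9 ligand, stayed between 5.93 and 17.3 CPM in all 10 libraries. Of the 15 receptors and decoys listed, 6 passed the filter. Ccr1, the receptor of Ccl3, Ccl5, Ccl6 and Ccl9, was 19.1 and 14.4 CPM in adult and was called higher in all 4 cultured groups, by log2 2.78 in vitro, 2.80 at slice 1 day, 3.38 at slice 1 week and 1.93 at slice 3 weeks. Ccr2, the receptor of Ccl2, Ccl7 and Ccl12 and a monocyte marker, was 24.6 and 17.7 CPM at slice 1 day and 2.64 and 3.35 CPM in adult. Ccrl2, a receptor that binds but does not signal, was called lower in vitro and at slice 1 week, by log2 -1.05 and -1.14.

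Genes of 3 pathways known to drive CC chemokine transcription were counted beside the family, and their counts read against the 24.9% of all genes called higher and 25.3% called lower at slice 1 day, 17.9% and 17.5% at slice 3 weeks, 15.0% and 13.6% at slice 1 week and 22.4% and 28.5% in vitro, all against adult. Of 18 immediate early genes in the tests, 9 were called higher and 3 lower at slice 1 day against adult, with a median log2 of 1.80 beside 3.70 for the 8 CC chemokines and -0.06 for all genes. At slice 1 week 4 were higher and 4 lower (median 0.12), at slice 3 weeks 5 higher and 4 lower (median 0.31), and in vitro 5 higher and 6 lower (median -0.31). The 3 with the highest mean level, Junb, Jund and Ier5, measured log2 -0.02, -0.45 and -0.77 at slice 1 day, of which only Ier5 was called, as lower. Of 27 genes of the NF-kB pathway and its feedback, 6 were higher and 7 lower at slice 1 day (median 0.03), close to the shares over all genes. In vitro 7 were higher and 9 lower, at slice 1 week 3 and 8, and at slice 3 weeks 5 and 8. Its 3 highest genes, Nfkbia, Tnfrsf1a and Icam1, measured log2 0.48, -0.34 and -0.73 at slice 1 day, and only Icam1 was called, as lower. Of 20 interferon pathway genes, 8 were higher and 5 lower at slice 1 day (median 0.24) and 8 higher and 2 lower in vitro (median 0.74). At slice 1 week 1 was higher and 4 lower (median -1.01), and at slice 3 weeks 2 were higher and 3 lower (median -0.06). Its highest genes were Ifngr1, called lower by log2 -2.23 at slice 1 day, Bst2, called higher by log2 0.72, and Ifngr2, at log2 -0.53 and not called. The CC chemokine medians against adult were 1.27 in vitro, 1.21 at slice 1 week and 1.51 at slice 3 weeks.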

How the data were processed

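The authors deposited 1 table of UMI counts per library (genes by cell barcodes), made with Cell Ranger 1.3.0 on mm10 according to the submitters' processing notes. Values are raw counts. Of 19637 barcodes, 19059 were kept: those with at least 400 genes, no more than 30000 UMIs and a mitochondrial share of at most 5%. No doublet caller was run. Kept cells were summed per library, and genes passing edgeR's filterByExpr (minimum count 10) were tested with edgeR 4.0.16 (quasi-likelihood, TMM, R 4.3.3) over all 10 libraries, with the SE taken as the log2 fold change over the square root of F. DESeq2 1.42.0 was an alternative. Tested on simulated data for in vitro against adult, the fit called right 97 of 100 genes changed by log2 2 and 55 of 100 changed by log2 1. Two-sided exact permutation over 2 libraries against 2 cannot go below p = 0.333 and was not used. The named genes are the 8 members in every library, other CC ligands and receptors with a mean of at least 10 CPM in 1 group, the 3 genes nearest each member across libraries (mean of at least 20 CPM) and across cells, and the 3 highest genes of each pathway list. A gene that meets this rule is not reported here. Members and lists were chosen with earlier results of these data known. Same-numbered libraries deviated together by r of -0.13 to 0.12. Their numbers follow the study label in adult and slice 3 weeks (r = 0.074) and are a bare number in the other groups.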

Additional observations from a re-analysis of the deposited data

Results flagged for a closer look

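The comparisons between cultured groups test directly whether the change against adult differs between them, and 17 member values passed. Over all genes, 2.23% to 19.9% were called in a given direction of these comparisons. Between in vitro and slice 3 weeks these were Ccl12 (log2 -3.18), Ccl3 (-2.13), Ccl4 (-3.29), Ccl7 (2.96) and Ccl9 (2.00). Between slice 3 weeks and slice 1 day they were Ccl2 (-2.42), Ccl5 (-4.24), Ccl7 (-4.62) and Ccl9 (-1.77). Between slice 1 week and slice 1 day they were Ccl12 (-1.47), Ccl3 (-1.24), Ccl4 (-2.86), Ccl6 (-1.08) and Ccl9 (-2.48). Between slice 3 weeks and slice 1 week they were Ccl3 (1.32), Ccl4 (2.44) and Ccl6 (1.33). Some of these calls were lost when a single library was left out. They were Ccl2 and Ccl5 between slice 3 weeks and slice 1 day, and Ccl6, Ccl9 and Ccl12 between slice 1 week and slice 1 day. Ccl3 between slice 3 weeks and slice 1 week was also lost. For Ccl12, both libraries in vitro lay below both adult libraries, and both libraries of each slice group lay above them.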

How the results depend on the processing

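Of 42 member calls, 26 kept their direction and side of the threshold under all of the 22 alternatives that gave a value, and 16 did not under 1 or more (15 with UMIs per cell left aside). Of the 22 values not called, 16 were called under 1 or more alternatives, and 9 with UMIs per cell and the fit without a filter left aside. Under UMIs per cell the middle of the whole table shifted against adult by log2 2.15 in vitro, 1.55 at slice 1 day, 1.19 at slice 1 week and 1.08 at slice 3 weeks. Against slice 1 day it shifted by -0.36 at slice 1 week and -0.46 at slice 3 weeks. It shifted by -0.10 at slice 3 weeks against slice 1 week and by 1.07 in vitro against slice 3 weeks. The changes under UMIs per cell carry these shifts. In UMIs per cell, members called lower became 0 in vitro against adult and 0 at slice 1 week against adult, 8 at slice 1 week against slice 1 day and 2 at slice 3 weeks against slice 1 week. There, Ccl12 in vitro against adult measured log2 0.61, Ccl9 at slice 3 weeks against adult 0.60, Ccl3 and Ccl6 at slice 3 weeks against slice 1 day -0.37 and -0.19, and Ccl2 and Ccl6 in vitro against slice 3 weeks 0.80 and 0.77. With library size alone, Ccl6 at slice 1 week and Ccl7 at slice 3 weeks against adult measured -0.21 and -0.038. With no filter on low counts, members called lower became 2 in vitro against adult, 1 at slice 3 weeks against adult, 8 at slice 1 week against slice 1 day and 2 at slice 3 weeks against slice 1 week, members called higher in the last became 5, and Ccl6 at slice 1 week against adult measured -0.048. With all barcodes, Ccl2 in vitro against slice 3 weeks measured 0.17. With the study label as covariate it measured 0.75, and the calls gained were Ccl7 at slice 3 weeks against slice 1 week, Ccl2 and Ccl7 at slice 1 week against slice 1 day and Ccl12 at slice 3 weeks against slice 1 day, which made 1 member called lower in the first. Within study label TST11247, 1 member was called lower at slice 3 weeks against adult and 1 against slice 1 week, and sign changes were Ccl5 in vitro (1.84) and at slice 3 weeks (3.48) against adult, Ccl6 at slice 1 week against adult (-0.023), Ccl3 at slice 3 weeks against slice 1 day (-0.049) and Ccl2 in vitro against slice 3 weeks (0.78). The fits without cells over the neutrophil or monocyte marker limits and without both slice 1 week libraries were chosen after seeing the data. In the first, Ccl6 at slice 1 week against adult measured -0.40 and Ccl3 at slice 3 weeks against slice 1 day -0.080. The planned limit on those markers was not run, since it left no cell in slice 1 day replicate 2. The replicate number matches the study label in adult and slice 3 weeks and is a bare number elsewhere. With the replicate block Ccl5 at slice 3 weeks against adult measured 0.14, and no other member changed its call or direction.

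With each library left out in turn, members called higher at slice 1 week against adult ranged from 1 to 5. Members called lower ranged from 1 to 2 in vitro, 0 to 1 at slice 1 week and 0 to 1 at slice 3 weeks against adult, 3 to 5 at slice 1 week and 2 to 5 at slice 3 weeks against slice 1 day, and 0 to 1 at slice 3 weeks against slice 1 week. Log2 values that changed sign ranged from -0.74 to 0.87 for Ccl2 in vitro against slice 3 weeks, -1.28 to 1.26 for Ccl2 at slice 3 weeks against slice 1 week and -0.057 to 0.24 for Ccl3 at slice 3 weeks against slice 1 day. Against adult they ranged from -0.064 to 1.99 for Ccl4, -0.14 to 4.89 for Ccl5 and -0.47 to 0.32 for Ccl6 at slice 1 week, from -3.72 to 1.94 for Ccl5 in vitro, and from -1.88 to 3.15 for Ccl5, -1.09 to 2.57 for Ccl7 and -1.16 to 0.038 for Ccl9 at slice 3 weeks. Ccl5 has no value at slice 1 week without replicate 1, since the other library holds no UMI of it. The cause of these changes was not tested. Of 160 shares of cells under another setting, 83 stayed within their exact 95% interval.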
